A study of Mus musculus with 2 samples.

Results

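Poly(ADP-ribose) polymerases (PARPs) are enzymes that attach ADP-ribose, taken from NAD, to proteins, and Dtx3l is the ubiquitin ligase that works as a complex with Parp9. They were followed in mouse retinal pigment epithelium (RPE), the pigmented layer that supports the photoreceptors, kept as primary cultures. The set was listed by name as 10 genes, which were chosen by family with their ratios of IFNg to untreated signal on these same arrays already known: Parp1, Parp3, Parp8, Parp9, Parp10, Parp11, Parp12, Parp14, Tiparp (also called Parp7) and Dtx3l. The platform annotation tied 20 probe sets to them, of 45037 non-control probe sets, and 19 of these named 1 gene alone. They gave values for 9 of the 10 genes, out of 18193 genes that had such a probe set. Parp10 had only a probe set shared with another gene, which is described apart.

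The study hybridised 1 array per condition. The first array carried RNA from untreated RPE, and the second carried RNA from RPE given interferon gamma (IFNg), a lymphocyte cytokine, at a dose of 100 U/ml over 24 h. Both primary cultures had been grown for 14 days, were kept overnight in medium without serum before RNA was taken, and were reported to be 95% cytokeratin-positive. The labels name no strain, age or number of animals for either culture. Single arrays allow no test and show no replicate spread, so higher and lower describe these 2 arrays, whose number sets the limit on precision. Fewer cells of a type and less RNA per cell cannot be told apart in such bulk samples.

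Most PARPs transfer a single ADP-ribose unit, whereas Parp1 and its relatives Parp2, Tnks and Tnks2 build chains. Parp1 is activated by DNA breaks and recruits repair proteins. Several of the single-unit enzymes are known as interferon-stimulated genes with roles in antiviral defence. Parp9 and Parp14 carry macrodomains, which bind ADP-ribose.

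With IFNg, 8 of the 9 genes with a value were at least 2-fold higher, Parp1 lay within 2-fold, and none was 2-fold lower. Over all 12743 measured genes (above the floor on either array), 8.82% were at least 2-fold higher and 4.48% at least 2-fold lower. The listed genes were named with this contrast known, so the counts are set side by side as a description. The floor was a signal of 20.4, the median over both arrays, and lower signals were raised to it before log2 was taken. All 9 genes were above it on both arrays by the probe set that gave the gene value, the one with the highest mean log2 signal. Their median log2 ratio (IFNg minus untreated) was 1.66, against -0.12 for all measured genes. The only spread that the design gives is technical: log2 ratios of different probe sets of a gene had an SD of 0.44 over 4419 genes.

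**Figure D1:**
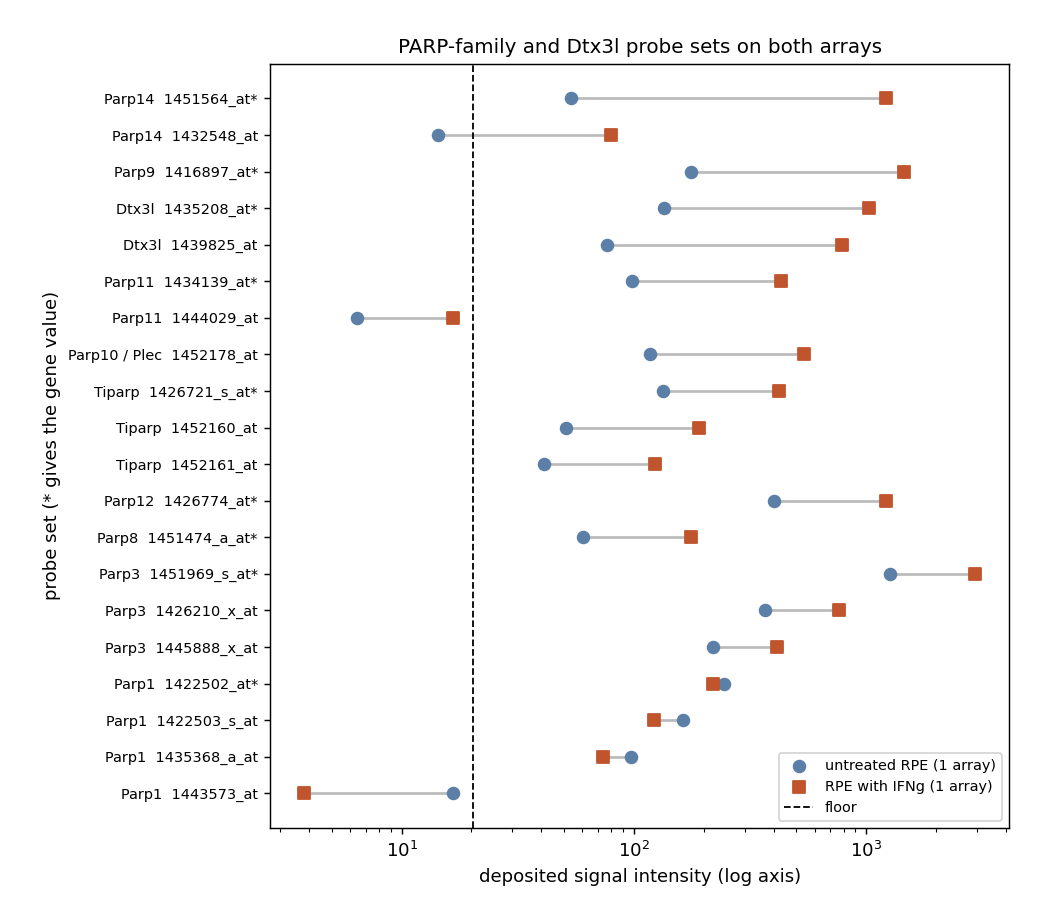
Deposited signal intensity (log axis) of the 20 probe sets on the untreated array (circles) and the IFNg array (squares), with the floor of 20.4 as a dashed line and an asterisk at the probe set that gave each gene its value. Squares lie to the right of circles for every probe set outside Parp1, and to the left for all 4 of Parp1.

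Promoter sequence was available for 7 of the 9 genes with a value, from RefSeq with build GRCm38.p6, and Parp9 and Parp14 had no entry. The 250 bases before each start site were searched on both strands for 3 short motifs, and are shown whole except for Parp11, where 240 are shown because the annotated gene begins 10 bases before that start site. These were the core of the interferon-stimulated response element (GAAA, any 2 bases, GAAA), which IRF factors bind, the core of the gamma-activated site (TTCNNNGAA), which STAT dimers bind, and the core of the xenobiotic response element (GCGTG), which the aryl hydrocarbon receptor (AHR) binds. Among all 32851 such windows of the table, 2.98% held the first, 7.02% the second and 28.2% the third. The windows below are shown for Parp11, the one gene with matches to both interferon motifs, for Parp12 and Tiparp, which were about as high with IFNg as each other, and for Parp1, which was not higher. They are written 5′ to 3′ on the gene's strand, and capitals mark every match to any of the motifs.
Parp11, chr6:127446590-127446829, plus strand: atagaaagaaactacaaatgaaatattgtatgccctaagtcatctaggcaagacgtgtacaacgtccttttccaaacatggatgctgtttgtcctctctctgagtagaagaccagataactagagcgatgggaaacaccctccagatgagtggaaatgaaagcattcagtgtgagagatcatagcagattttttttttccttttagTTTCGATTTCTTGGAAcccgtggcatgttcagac
Parp12, chr6:39118350-39118599, minus strand: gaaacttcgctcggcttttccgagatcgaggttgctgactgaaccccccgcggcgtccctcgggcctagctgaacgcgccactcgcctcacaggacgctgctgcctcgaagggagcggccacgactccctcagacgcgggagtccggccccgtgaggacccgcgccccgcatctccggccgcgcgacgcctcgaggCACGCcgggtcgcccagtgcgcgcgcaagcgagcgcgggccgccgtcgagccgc
Tiparp, chr3:65528197-65528446, plus strand: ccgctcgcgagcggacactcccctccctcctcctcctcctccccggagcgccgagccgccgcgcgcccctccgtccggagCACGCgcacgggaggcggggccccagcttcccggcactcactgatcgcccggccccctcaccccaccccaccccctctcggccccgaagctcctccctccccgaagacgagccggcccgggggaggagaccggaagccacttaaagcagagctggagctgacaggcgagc
Parp1, chr1:180568641-180568890, plus strand: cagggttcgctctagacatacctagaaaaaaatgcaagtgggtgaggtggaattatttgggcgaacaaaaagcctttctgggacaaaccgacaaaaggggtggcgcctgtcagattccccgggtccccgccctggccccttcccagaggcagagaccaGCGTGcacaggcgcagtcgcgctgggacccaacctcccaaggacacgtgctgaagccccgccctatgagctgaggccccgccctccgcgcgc

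In the Parp11 window, the response element core began at position -44 on the opposite strand, and the gamma-activated site core began at -37 and overlapped it. Positions are counted from the annotated start site, with the base just before it as -1, so the Parp11 sequence shown ends at -11. Parp11 has a second annotated start, whose window held neither interferon motif but held the AHR core (GCGTG) on the opposite strand at -165 and -86. No interferon motif lay in these windows of Parp1, Parp3, Parp8, Parp12, Tiparp or Dtx3l, which says only that these letters are absent there. The AHR core lay in each of those 6 windows, on the opposite strand at -170 for Tiparp and at -54 for Parp12, and on the gene's strand at -92 for Parp1 and at -50 for Dtx3l. A match to letters is a description and not evidence of binding.

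The largest ratio of the set belonged to Parp14, a macrodomain PARP known as a coactivator of STAT6. Its brighter probe set had a signal of 53.5 for the untreated culture and 1218.5 for the culture with IFNg. This is 22.8-fold higher (log2 ratio 4.51), rank 23 of the 12743 measured genes. A second, dimmer Parp14 probe set had 14.3, under the floor, and 79.9, which gives at least 3.92-fold. It points the same way, and as a bound it does not contradict the larger value. If the floor was set at the 75th percentile of all signals, the 22.8-fold value became a bound of log2 3.81, and with both probe sets averaged it was 3.24.

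Parp9, which has macrodomains and acts together with Dtx3l, had signals of 176.1 untreated and 1462.5 with IFNg. It was 8.30-fold higher (log2 ratio 3.05) by its 1 probe set. Dtx3l, the E3 ligase of the pair, had signals of 134.8 and 1029.2 by its brighter probe set, 7.63-fold higher (2.93). Its other probe set had 77 and 789.3, 10.2-fold higher (3.36). The ratios of Parp9 and Dtx3l differed by 0.12 log2 units, less than the SD of 0.44 between probe sets, while Parp14 was 1.46 above Parp9.

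Parp14, Dtx3l and Parp9 are adjacent protein-coding genes on mouse chromosome 16 in the reference gene table. None of the genes that flank this trio was 2-fold higher. On the Parp14 side, Hspbap1 had signals of 23.5 and 28.8 (log2 ratio 0.29) and Slc49a4, a transporter gene, had 247.7 and 157.7 (-0.65). On the Parp9 side, the nuclear import receptor gene Kpna1 had 118.8 and 161.5 (0.44), and Wdr5b had 31.2 and, under the floor, 1.3 (-0.61, which bounds a decrease). The ratios of the trio, 2.93 to 4.51, were thus all above those of its measured flanking genes on these arrays. Across the 8 higher members, the 2 nearest protein-coding genes on each side came to 24 genes outside the set. Of these 17 were measured, 2 passed 2-fold higher and 1 passed 2-fold lower, against 8.82% and 4.48% of all measured genes. The higher ones were the histone demethylase gene Kdm7a beside Parp12 (22.2 and 53.8, 2.42-fold) and the cyclin gene Ccnl1 near Tiparp (173.6 and 481.3, 2.77-fold). The untreated signal of Kdm7a lay just over the floor. Tigar, near Parp11, was 2.53-fold lower, with signals of 91.7 and 36.2.

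**Figure D2:**
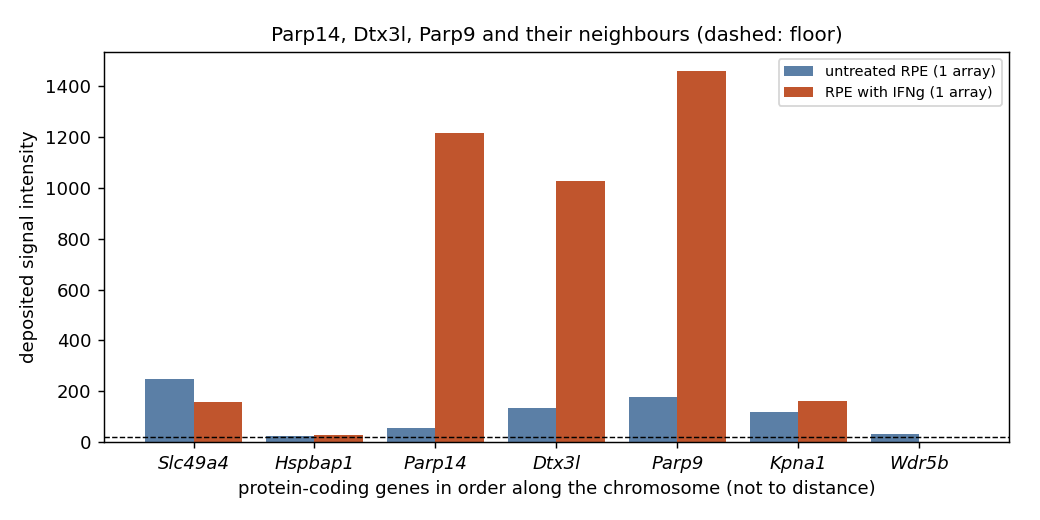
Deposited signal intensity (linear axis from 0) of Parp14, Dtx3l, Parp9 and the 2 protein-coding genes on each side, in chromosomal order and not to distance, with 1 bar per array and the floor of 20.4 dashed. The 3 members reach 1029.2 to 1462.5 with IFNg, while the flanking genes have log2 ratios between -0.65 and 0.44, with a bound for Wdr5b. Bars of different genes come from different probes and do not rank transcripts.

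The single-unit transferases followed. Parp11, a small PARP with a WWE domain, had signals of 98.6 untreated and 431.9 with IFNg, 4.38-fold higher (log2 ratio 2.13). Its other probe set was under the floor on both arrays, at 6.4 and 16.7, and gave no ratio. Averaging the informative probe set with that one lowered the value to 1.07, because the second enters at the floor on both arrays. Parp12, a zinc-finger PARP with antiviral activity, had signals of 401.6 and 1223.7 by its 1 probe set and was 3.05-fold higher (1.61). Parp8, of which less is known, had 60.4 and 176.6 by its 1 probe set, 2.92-fold higher (1.55). The 75th percentile floor lies above its untreated signal, and Parp8 then had a bound of 1.03.

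Tiparp, a PARP whose gene is a classical target of AHR and which feeds back on that receptor, was measured by 3 probe sets above the floor on both arrays. The signals were 133.5 and 423.2, 51.2 and 190.7, and 41.1 and 123. The corresponding folds were 3.17, 3.72 and 2.99, so all 3 probe sets were about equally higher with IFNg. The log2 ratios of Tiparp, Parp12 and Parp8 lay 0.06 apart from 1 to the next, well under the spread between probe sets of a gene.

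Parp3, which acts in the repair of DNA double-strand breaks, had the smallest ratio of the 8. Its signals were 1261 and 2950 by the probe set that gave the gene value, 368.8 and 762.2 by the second, and 219.4 and 415.2 by the third. The folds were 2.34, 2.07 and 1.89, all higher with IFNg and on either side of 2-fold. The IDs of all 3 probe sets mark sequence shared between transcripts or genes, as does the ID of the Parp8 probe set. Without such probe sets no value was left for Parp3 or Parp8, and 6 of the 7 remaining genes were at least 2-fold higher.

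Parp1, the founding chain-forming enzyme of DNA repair, was not higher by any of its probe sets. Signals were 245.1 untreated and 219 with IFNg (log2 ratio -0.16), 163.2 and 122 (-0.42), and 97 and 73.8 (-0.39). Another probe set was under the floor on both arrays, at 16.7 and 3.8. The 3 measured probe sets were slightly lower with IFNg, each by less than 0.44 log2 units. That value is the SD between probe sets of a gene and does not measure variation between cultures. Parp1 lay 1.39 log2 units under Parp3, the next gene in the order of ratios.

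Parp10, another single-unit transferase, was annotated only by a probe set that also names Plec, the gene for the cytoskeletal linker plectin. Its signals were 117.5 and 541.2, 4.61-fold higher with IFNg (log2 ratio 2.20). The probe sets naming Plec alone had 1468.6 and 1114.7 (-0.40), 605.4 and 587.2 (-0.04), and 1.6 and 8.1, under the floor. None of the Plec probe sets was 2-fold higher, but the shared probe set is counted for neither gene.

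**Figure D3:**
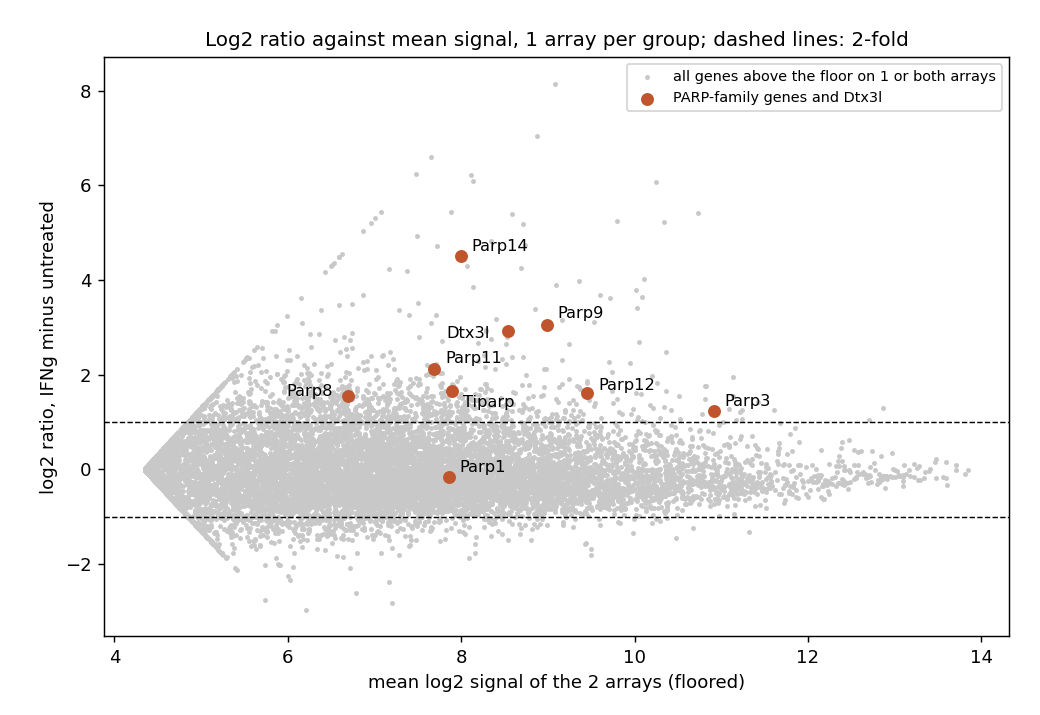
Log2 ratio (IFNg minus untreated) against mean log2 signal for the 12743 measured genes (grey) and the 9 listed genes with a value (orange), with 2-fold as dashed lines. Parp14 lies highest of the listed genes at 4.51, Parp9 and Dtx3l follow at 3.05 and 2.93, and Parp1 lies near 0 at -0.16.

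At the level of single probe sets, 17 of the 19 that named 1 gene were above the floor on at least 1 array. Of these, 13 passed 2-fold higher, 4 lay within 2-fold and none passed 2-fold lower. Those within 2-fold were the 3 of Parp1 and the third of Parp3. Over all 22273 such measured probe sets, 9.36% were at least 2-fold higher and 4.69% at least 2-fold lower. Probe sets of a gene kept close to each other: their log2 ratios spanned 0.26 for Parp1, 0.31 for Parp3, 0.32 for Tiparp and 0.43 for Dtx3l, counting those above the floor on both arrays. In 4 genes more than 1 probe set could be compared in this way.

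The remaining PARP-family genes were less uniform. The 6 measured genes had a median log2 ratio of 0.57, with 2 at least 2-fold higher and none 2-fold lower. Zc3hav1, the zinc-finger antiviral protein also counted as Parp13, had 180.7 and 579.7 (3.21-fold), but a dimmer probe set had 69.1 and 57 (-0.28). The tankyrase Tnks2 had 384.6 and 890.6 (2.32-fold), with 0.77 from a dimmer probe set. With probe sets averaged per gene, neither passed 2-fold. Its paralog Tnks (188.7 and 293.6, log2 ratio 0.64) and Parp2, the closest relative of Parp1 in DNA repair (119.5 and 169.3, 0.50), lay within 2-fold. Parp16 was under the floor on both arrays, at 6.9 and 5.6.

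Among 9 measured genes that read or remove ADP-ribose, none reached 2-fold at this floor by gene value, and the median log2 ratio was 0.17. In 2 of them the ratio is only a bound. The hydrolase gene Macrod2 had 38.6 untreated and, under the floor, 10.3 with IFNg, so its -0.92 bounds a decrease. Aplf, a repair factor that binds ADP-ribose chains, had 3.7, under the floor, and 33.4, so its 0.71 bounds an increase. With the 25th percentile floor, and with the pseudocount, 1 gene of this list was 2-fold higher and 1 was 2-fold lower. The hydrolase Oard1 had 53.4 and 88.7 (0.73), and Rnf146, a ubiquitin ligase that recognises ADP-ribose chains, had 268.3 and 438.8 (0.71). A dimmer Rnf146 probe set had 72.3 and 115.9 (0.68). Another had 6.2, under the floor, and 41.7, a bound of at least 1.03, which is past 2-fold higher. The chain-cutting glycohydrolase Parg had 86.9 and 124 (0.51). The hydrolase genes Adprhl2 and Macrod1 were on the lower side, with 113.3 and 70.4 (-0.69) and 392.4 and 264.3 (-0.57). The ligases most like Dtx3l by family, Dtx1, Dtx2, Dtx3 and Dtx4, also lay within 2-fold, and all 4 were on the lower side under each scaling tried, with a median of -0.56. Dtx1 had 64.5 and 33.1 (-0.96) and passed 2-fold lower under 3 of the alternatives, at -1.04 with a common 75th percentile, -1.06 with quantile normalization and -1.01 with loess, and Dtx3 had 206.7 and 116.7 (-0.82).

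Proteins that work with Parp1 in single-strand break and base excision repair gave a median of -0.20 over 7 measured genes. The flap endonuclease Fen1 had 287.3 and 102.7 (2.80-fold lower), and the scaffold Xrcc1 had 161.8 and 59.1 (2.74-fold lower). A second, dimmer Fen1 probe set had 80.4 and 104.6 and went the other way (0.38). Both genes rest on probe sets whose IDs mark shared sequence, and without such probe sets neither had a value. With averaged probe sets, or with the 75th percentile floor, 1 of the list was 2-fold lower in place of 2. Hpf1, which directs Parp1 to serine, had 226 and 391.6 (0.79), and the polymerase Polb had 184.2 and 280.7 (0.61). A dimmer Polb probe set had 86.9 and 106.1 (0.29). Another had 13.7, under the floor, and 78, a bound of at least 1.93, which is past 2-fold higher. A further Polb probe set had 10.9, under the floor, and 33.6, a bound of at least 0.72.

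In NAD metabolism, which supplies the PARP substrate, the 12 measured genes had a median log2 ratio of 0.08, with 2 at least 2-fold higher and none 2-fold lower. These counts depended on the setting, at 1 to 4 higher and 0 to 2 lower. The 25th percentile floor gave 4 and 2, and the pseudocount gave 1 and 1. Nampt, the rate-limiting enzyme of NAD salvage, had 169.5 and 877.8 (5.18-fold higher), and its other probe sets had 76.2 and 381.9 (2.33) and 20.8 and 71.7 (1.79). Bst1, an NAD-consuming surface enzyme, had 39.9 and 80.4, just past 2-fold (1.01), and its other probe set had 2.2, under the floor, and 63.2, a bound of at least 1.63. The brighter Bst1 probe set had 0.93 under a common 75th percentile, 0.89 with quantile normalization and 0.98 with loess. Naprt, which uses nicotinic acid, had 181.6 and 91.3 (-0.99), with -1.07 under a common 75th percentile and -1.05 with quantile normalization. Sarm1, an NAD-cleaving enzyme, had 36.8 and, under the floor, 4.9 (-0.85, which bounds a decrease).

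The AHR pathway, to which Tiparp belongs as a target, had no gene at 2-fold among 6 measured, with a median of 0.15, and 1 gene 2-fold higher with the 25th percentile floor. The target gene Cyp1b1 had 637.4 and 1071.6 (0.75), with -0.20 from another probe set. The targets Aldh3a1 and Nqo1 were on the lower side, with 41.9 and 30.2 (-0.47) and 365 and 284.9 (-0.36). The receptor gene Ahr had 416.8 and 480.5 (0.20), while its dimmer probe set had 44.8 and 24.2 (-0.89), and its partner gene Arnt had 151.7 and 181.2 (0.26), with 4 dimmer probe sets between -0.44 and 0.02. Cyp1a1, the best-known target, had 12.5, under the floor, and 21.7, so its ratio is a bound, and Ahrr and Cyp1a2 were under the floor on both arrays and gave no ratio.

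Among STAT and IRF transcription factors, 4 of 7 measured genes passed 2-fold higher and none passed 2-fold lower, and the median was 1.52. Irf8 had 32.5 and 987.7 (30.4-fold), Irf1 had 319.1 and 3391.1 (10.6-fold), Irf7 had 286.3 and 853.3 (2.98-fold) and Stat2 had 134.4 and 385.9 (2.87-fold). Stat6, the factor that Parp14 is known to coactivate, had 560.9 and 472.1 (-0.25).

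**Figure D4:**
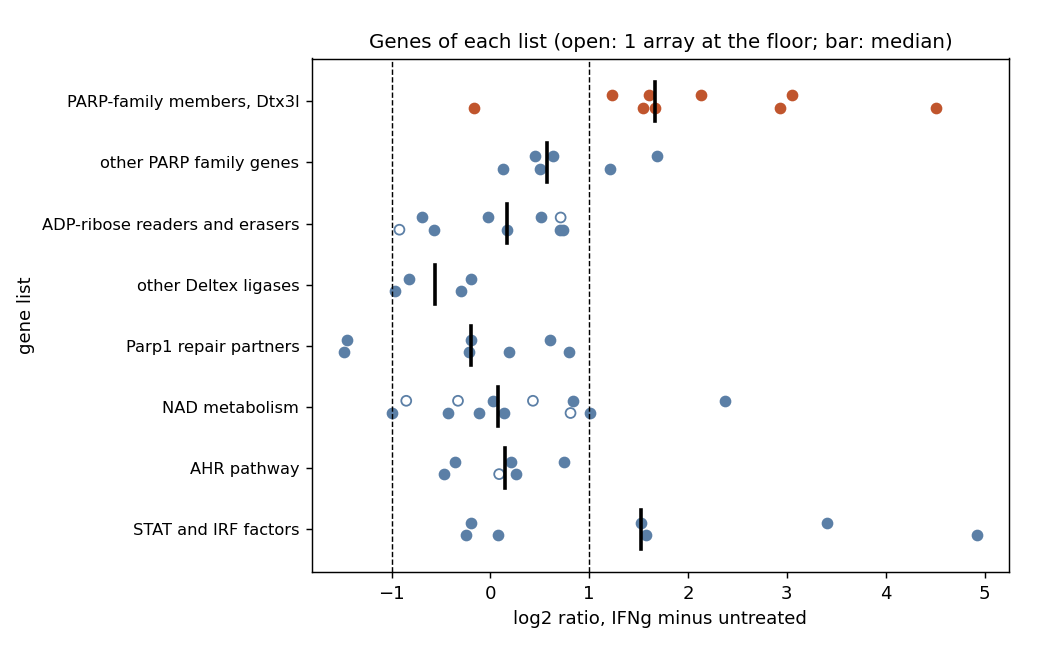
Log2 ratio (IFNg minus untreated) of each measured gene, by gene list, with the list median as a bar, 2-fold as dashed lines and open circles where 1 array was at the floor. Medians are 1.66 for the listed PARP genes and Dtx3l, 0.57 for the remaining PARP family, 1.52 for STAT and IRF factors, and between -0.56 and 0.17 for the other lists.

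The genes whose pair of signals lay nearest to each member were found by distance in the log2 signals of the 2 arrays, among 10441 genes above the floor on both. Signals of different probes depend on the probe as well as on the transcript, so nearness describes the signals only. Parp14 had few near genes, with 2 within 0.5 log2 units, and the nearest were the chemokine gene Ccl5 (distance 0.18), Mndal (0.43) and Trim30a (0.50). Parp9 had 3 within 0.5, namely the peptide transporter gene Tap1 (0.26), the GTPase gene Gbp3 (0.30) and the nucleic acid sensor gene Zbp1 (0.46). Dtx3l had 10, led by Snx10 (0.10), the inflammasome adaptor gene Pycard (0.21) and the RNA sensor gene Ifih1 (0.26). The members of smaller ratio sat in denser company. There were 19 genes within 0.5 of Parp3, 34 of Parp12, 40 of Parp11, 120 of Tiparp and 184 of Parp8. The nearest were Icam1, Cdh11 and Psme1 for Parp3, Usp18, Matr3 and Vwa5a for Parp12, and Rock1, Ppp1r12a and Rap2c for Parp11. For Tiparp they were Shfl, Nr3c1 and Tent5a, and for Parp8 they were Eif5b, Ro60 and Wapl.

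Cell type markers were read on the same arrays. Of 11 RPE markers 9 were measured and 3 were 2-fold lower with IFNg, Otx2 had 410.9 and 388.5, and Rpe65 and Best1 were under the floor on both arrays. Those 3 were Ttr (89.4 and 29.4), Tyrp1 (53.1 and 21.7, the latter just over the floor) and Rlbp1 (73.2 and 35.1). Another Tyrp1 probe set had 55.9 and, under the floor, 10 (-1.45, which bounds a decrease). A further Tyrp1 probe set had 17.7, under the floor, and 25.7, a bound of at least 0.33 higher. Tyr had 986.1 and 605.7, and Pmel had 22.2 and, under the floor, 3.3 (-0.12, which bounds a decrease). Mitf went the other way, with 66 and 99.6 (0.59), and Krt8 had 453.5 and 459.9 (0.02). Summed signals of the list were 3554 and 4099, and 2164 and 1654 without the keratin gene Krt18 (1390.4 and 2445.9). Of 8 macrophage and microglia markers 6 were measured and 1 was 2-fold lower (Csf1r), with sums of 493.2 and 284.6 and Ptprc at 20.8 and 7. Dimmer Csf1r probe sets had 62.7 and 51.5 (-0.28) and 66.6 and 45.2 (-0.56), within 2-fold. Of 5 T, B and NK cell markers on the array 1 was above the floor (sums 55.5 and 44.3), and 4 endothelial markers had sums of 125.9 and 82.8. Fibroblast markers were bright on both arrays, with sums of 39202 and 33523 over 5 genes, all within 2-fold by gene value. A dimmer probe set of the fibroblast marker Acta2 had 89.3 and 33.6 (-1.41), past 2-fold lower. No leukocyte, endothelial or fibroblast marker had a value of 2-fold higher, but the macrophage marker Fcgr1 (11.1, under the floor, and 28.5) gives only a bound of at least 1.40-fold higher. A dimmer probe set of the endothelial marker Cdh5 (2.8, under the floor, and 35) likewise gives at least log2 0.78, against -0.87 by the brighter one. The part of these cell types in the members' values was not tested.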

How the data were processed

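Total RNA of 2 primary RPE cultures was amplified and biotin-labelled, and each was hybridised to 1 Affymetrix mouse array, per the labels' protocols. The authors deposited a linear signal intensity for each of 45101 probe sets, spanning 0.1 to 14896. Their software for summarisation and background correction is not given in the sources used here, and no detection calls were used. Each deposited array had a mean of 100 after trimming 2% at each end, as seen in the values.

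The cultures were grouped by title. After leaving out 64 control probe sets, both arrays were brought to 1 trimmed mean (factors 1.00008 and 0.999924), and signals were raised to at least the pooled median of 20.4 before log2. This floor left 49.5% of probe sets above it on the untreated array and 50.4% on the IFNg array. Where only 1 array exceeded it, the ratio is a bound. Names came from the platform annotation (34945 probe sets with 1 gene, 932 with several, 9160 with none), updated through Entrez identifiers to the RefSeq table of GRCm38.p6. Each gene was read from its brightest probe set by mean log2 signal, out of those that name no other gene. Counts at 2-fold required the brighter array to exceed the floor, and no test was run.

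The members and gene lists were chosen with earlier results of these data known. Named were all members with every probe set, up to 4 genes of each list by size of difference with any at 2-fold the other way, the 3 nearest genes by signal, and the 2 protein-coding neighbours on each side. A few further list genes are given to show values within 2-fold, as are all cell type markers by their counts. The 3 promoter motifs were chosen after the array values were seen. The alternatives were the deposited values unscaled, a common 75th percentile, quantile normalization, loess, a floor at the 25th or the 75th percentile, a pseudocount of 16, averaged probe sets, and dropping probe sets with IDs that mark shared sequence. The 2-fold rule was also run on simulated arrays with known folds. These held only genes above the floor on both arrays, with noise set from the spread between probe sets of a gene. They therefore say nothing about dim signals or variation between cultures. Python 3.11.15 was used, with numpy 2.4.6, pandas 2.3.3, statsmodels 0.14.6 and matplotlib 3.10.9.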

Additional observations from a re-analysis of the deposited data

How the results depend on the processing

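No paired analysis was possible because each group had 1 array, and for the same reason no replicate could be left out. The count of listed genes at least 2-fold higher was 8 under the main processing and under 8 of the 9 alternatives, and 6 of 7 genes without probe sets whose IDs mark shared sequence. That setting also moved the median log2 ratio of the listed genes from 1.66 to 2.13 and that of the STAT and IRF factors from 1.52 to 0.88, as fewer genes had a value. No listed gene changed direction under any alternative, and Parp1 stayed between -0.24 and -0.07. The counts over all genes depended on the floor and on the probe-set rule. Against 1124 higher and 571 lower genes, a 25th percentile floor gave 2258 and 2059, a 75th percentile floor gave 574 and 163, and averaged probe sets gave 591 and 357. The share of all genes at least 2-fold higher lay between 4.64% and 13.6% over the alternatives. List medians of Parp1 repair partners (-0.27 to 0.18), NAD metabolism (-0.20 to 0.14) and the AHR pathway (-0.21 to 0.49) took either sign. The background within dim signals is unknown here, which leaves the size of their ratios uncertain.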
